A study of Mus musculus with 6 samples.

Results

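The 5 genes Pcyt2, Agpat1, Agpat3, Pld1 and Dgkz encode enzymes that build glycerophospholipids or interconvert diacylglycerol and phosphatidic acid. They were taken by gene symbol from a transcript-level comparison of B16.F10 mouse melanoma cells treated with simvastatin against untreated B16.F10 cells. The symbols matched 10 of the 15905 transcript rows and 5 of the 8513 genes in the authors' deposited table. Of these 10 rows, 7 carry Ensembl transcripts and 3 are models assembled from the reads. The study sampled 3 flasks of wild-type B16.F10 cells given 3.5 µM simvastatin, an inhibitor of HMG-CoA reductase, for 24 h and 3 untreated flasks of the same line at 24 h. The labels call the flasks biological replicates, all of 1 established mouse line. No source used here says whether the untreated cells received the solvent of the simvastatin stock. RNA was sequenced from strand-specific total RNA libraries.

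The authors' deposited table gives 1 value per transcript and group, with a fold, a p-value and an adjusted p-value, so no value per flask and no spread between flasks can be shown. No source used here gives the unit of the values or names the test. The depth behind each value is unknown. Values are therefore compared between treatments within a transcript or a gene and not between genes. A transcript is called changed where the authors' adjusted p is under 0.05. Total values per gene are sums over its transcript rows and have no test. In bulk RNA, a smaller number of cells with a transcript and less of it per cell cannot be told apart. The fit of the cells to their label was looked at first. All 8 melanocyte markers had rows, and their values in the authors' deposited table summed to 11465 with simvastatin and 8012 without. That sum is carried by the markers with large values. Tyr was lower, at 50.2 with simvastatin and 53.1 without, Sox10 was near equal at 45.0 and 44.2, and the rest were higher. Of 10 markers of leukocytes, endothelium, fibroblasts and epithelium, 1 had a row, Cd68, a macrophage lysosomal protein, at 0.93 with simvastatin and 0.37 without in the authors' deposited table. The part of these marker levels in the results was not tested.

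Phosphatidic acid is the branch point of glycerolipid synthesis. Acyltransferases such as AGPAT1 and AGPAT3 make it by adding a second fatty acid to lysophosphatidic acid. Dephosphorylation of phosphatidic acid yields diacylglycerol, which receives a phosphoethanolamine or phosphocholine head group in the Kennedy pathway. PCYT2 makes the CDP-ethanolamine used there. Phosphatidic acid also forms in signalling, when phospholipase D cleaves phosphatidylcholine or a diacylglycerol kinase phosphorylates diacylglycerol. Diacylglycerol itself recruits protein kinase C and other effectors to membranes, so diacylglycerol kinases end one lipid signal while forming another.

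Among the 5 enzymes, the 1 change that passed the threshold was a fall of an assembled Dgkz transcript. That model was listed at 0 with simvastatin and at 3.11 without, while the Dgkz total differed little between treatments. Pcyt2 had a value 1.80 times that of untreated cells and missed the threshold at an adjusted p of 0.052 in the authors' deposited table. For Pld1, 1 of its 2 transcripts stood 5.28-fold higher with simvastatin (a log2 fold of 2.40, or 1.30 with 1 added to both values) and the other lower, and neither passed. Agpat1 and Agpat3 had folds of 1.10 and 1.21 in the authors' deposited table and did not pass. Thus 1 of 10 transcripts passed, against 2.09% of all 15905 transcripts, and with so few rows a count of 1 says little about these enzymes as a set. It fell, as did 0.987% of all transcripts, and none of the 10 rose, against 1.11% of all transcripts. With each gene's most abundant transcript alone, none of the 5 genes passed, against 3.15% of all genes, and 1 of the 5 had an unadjusted p under 0.05 in the authors' deposited table. Of the 10 rows, 6 were higher and 4 were lower with simvastatin. By the authors' own yes or no call, 3 of the 10 transcripts were changed, for Pcyt2, Pld1 and Dgkz, against 9.50% of all transcripts. Those same 3 rows had an unadjusted p under 0.05 in the authors' deposited table, against 19.6% of all transcripts. No row in the authors' own call has an adjusted p above 0.2 or a fold under 1.5 in size.

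**Figure D1:**
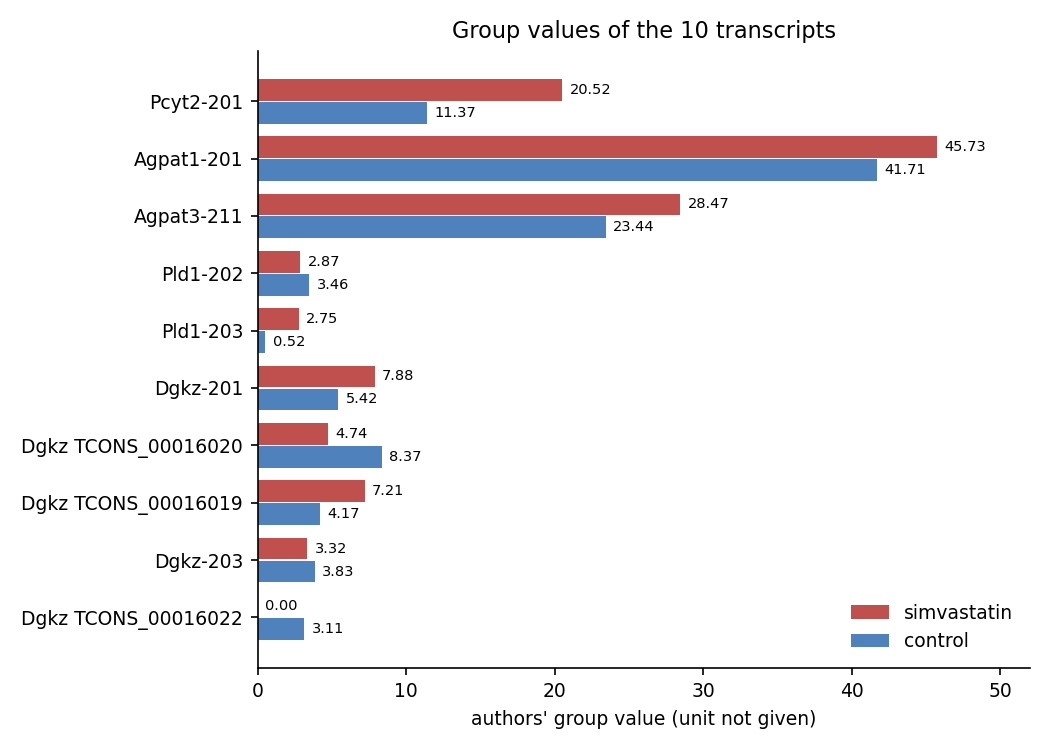
Group value of each of the 10 transcript rows, simvastatin above control, in the deposited unit. Pcyt2 stood at 20.5 with simvastatin and 11.4 without, and the Dgkz model TCONS_00016022 is listed at 0 with simvastatin and at 3.11 without.

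Pcyt2, of the ethanolamine branch, had the largest total ratio among these enzymes. Pcyt2 (ENSMUSG00000025137) encodes the enzyme that joins phosphoethanolamine to CMP, the step that limits phosphatidylethanolamine synthesis by the CDP-ethanolamine route. The gene lies at chr11:120610087-120617936 on the minus strand of GRCm38, where GENCODE M21 lists 12 transcripts. One of them had a value, Pcyt2-201 (ENSMUST00000026129), which has 14 exons and encodes 404 residues. It stood at 20.5 with simvastatin and 11.4 without in the authors' deposited table. Its log2 fold was 0.85, with p = 0.001 and an adjusted p of 0.052 in the authors' deposited table, so it was counted in the authors' own call and lay just outside the threshold of 0.05. Its total log2 ratio was above that of 92.6% of all genes. With a single transcript row, the transcript and the gene total are the same value for Pcyt2.

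The list of Kennedy pathway genes held 9 measured genes. In that list 1 gene rose, none fell, and 8 did not pass, against 2.03% of all genes with a transcript that rose and 1.81% with one that fell. The gene that rose was Etnk1, the ethanolamine kinase of the first step, at 42.4 with simvastatin and 31.6 without, a fold of 1.34 with an adjusted p of 0.040 in the authors' deposited table. Its fold lies under the 1.5 of the authors' own call, which does not hold it. The following step is that of PCYT2. Selenoi, the ethanolamine phosphotransferase of the last step, had 8.10 with simvastatin and 4.56 without, with an adjusted p of 0.355 in the authors' deposited table. On the choline side Pcyt1a, the enzyme of the matching step for phosphocholine, had a total of 24.9 with simvastatin and 14.2 without. Its 3 transcripts had adjusted p-values between 0.607 and 0.833 in the authors' deposited table. Slc44a1, a choline transporter, had a total of 14.4 with simvastatin and 14.9 without. Its main row had 10.2 with simvastatin and 12.1 without, with p = 0.001 and an adjusted p of 0.052 in the authors' deposited table, as close to the threshold as Pcyt2 and in the other direction. Slc44a2, a related transporter, had 7.55 with simvastatin and 4.60 without, with an adjusted p of 0.098 in the authors' deposited table. Totals were higher with simvastatin for 8 of the 9 genes and lower for 1, with a median total log2 ratio of 0.53, against a median of 0.019 over all genes. Over all genes 51.7% had a higher total with simvastatin.

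Agpat1 and Agpat3 differed little between treatments. Agpat1 (ENSMUSG00000034254, chr17:34604262-34613449, plus strand, GRCm38) encodes an endoplasmic reticulum enzyme that acylates lysophosphatidic acid. Its 1 measured transcript of 8 annotated, Agpat1-201 (ENSMUST00000037489), stood at 45.7 with simvastatin and 41.7 without, with p = 0.864 and an adjusted p of 0.940 in the authors' deposited table. Agpat3 (ENSMUSG00000001211, chr10:78269178-78352489, minus strand, GRCm38) encodes a related acyltransferase. Its 1 measured transcript of 13 annotated, Agpat3-211 (ENSMUST00000166360), stood at 28.5 with simvastatin and 23.4 without, with p = 0.096 and an adjusted p of 0.370 in the authors' deposited table. Their total log2 ratios, 0.13 and 0.28, lay inside the middle range of all genes, whose quartiles were -0.32 and 0.35. Without values per flask, no interval can be put on these differences.

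Agpat1 and Agpat3 were also read with the other enzymes of phosphatidic acid synthesis. Of the 9 measured genes of that list, none rose and none fell, and none had a transcript with an unadjusted p under 0.05 in the authors' deposited table, against 32.4% of all genes. Gnpat, the acyltransferase that starts ether lipid synthesis, had a total of 30.9 with simvastatin and 29.4 without. The median log2 fold of the most abundant transcripts in the list was 0.14. Of the 9 totals, 7 were higher with simvastatin and 2 were lower.

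Pld1 (ENSMUSG00000027695, chr3:27938695-28133362, plus strand, GRCm38) encodes phospholipase D1, which hydrolyses phosphatidylcholine to phosphatidic acid and choline. Its 2 rows differed in direction. Pld1-202 (ENSMUST00000120834) stood at 2.87 with simvastatin and 3.46 without, a log2 fold of -0.28, with p = 0.881 and an adjusted p of 0.947 in the authors' deposited table. Pld1-203 (ENSMUST00000123539) stood at 2.75 with simvastatin and 0.52 without, a log2 fold of 2.40, with p = 0.017 and an adjusted p of 0.148 in the authors' deposited table. That fold rests on the low untreated value. The Pld1 total was 5.62 with simvastatin and 3.98 without, a difference of 1.64 and a log2 ratio of 0.50. The higher total came from Pld1-203, while the row that was more abundant in untreated cells stood lower. Pld1-203 made up 48.9% of the Pld1 total with simvastatin and 13.1% without, a difference of 35.9 percentage points. Pld1-202 made up 51.1% with simvastatin and 86.9% without. These shares have no test. The authors' own call holds Pld1-203 and not Pld1-202.

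The 2 Pld1 transcripts differ at their starts, at their last exon and in 1 coding exon. GENCODE M21 gives each of them 27 exons, of which 24 are identical, and their start sites lie 45478 bases apart. They share a start codon. Pld1-203 has an extra coding exon of 114 bases, exon 16 of 27, at chr3:28079189-28079302 on the plus strand of GRCm38, which adds 38 codons. Pld1-203 therefore encodes 1074 residues and Pld1-202 encodes 1036. An insert of that length distinguishes the splice forms known as PLD1a, which has it, and PLD1b, which lacks it. Of the 2, Pld1-202 has transcript support level 1 and Pld1-203 has level 5, the weakest of the levels that GENCODE assigns. The exon is printed because it is the coding difference between the transcript that stood higher and the one that did not, with the exon in capitals and 20 bases of the neighbouring exons of Pld1-203 on each side in lower case.
Pld1-203 exon 16 with flanks: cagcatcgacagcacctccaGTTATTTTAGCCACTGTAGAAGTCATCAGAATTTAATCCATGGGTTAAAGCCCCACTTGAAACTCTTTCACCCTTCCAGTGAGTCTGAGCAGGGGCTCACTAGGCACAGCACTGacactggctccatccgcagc

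The start sites also differ in base composition. The RefSeq promoter windows, which run from 250 bases before to 50 bases after a start site on GRCm38.p6, are printed for both starts, with GC boxes (GGGCGG or its complement) in capitals. The upstream window at chr3:27938430-27938729, plus strand, has its start site 15 bases from that of Pld1-202. The internal window at chr3:27983921-27984220, plus strand, has its start site 2 bases from that of Pld1-203.
Pld1 upstream window: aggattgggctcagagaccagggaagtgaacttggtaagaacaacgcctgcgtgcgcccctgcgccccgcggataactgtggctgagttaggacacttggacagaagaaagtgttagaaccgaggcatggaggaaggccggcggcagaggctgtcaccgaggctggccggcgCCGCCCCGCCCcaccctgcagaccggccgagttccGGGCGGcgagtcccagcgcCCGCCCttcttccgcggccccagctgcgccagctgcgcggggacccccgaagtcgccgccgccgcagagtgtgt
Pld1 internal window: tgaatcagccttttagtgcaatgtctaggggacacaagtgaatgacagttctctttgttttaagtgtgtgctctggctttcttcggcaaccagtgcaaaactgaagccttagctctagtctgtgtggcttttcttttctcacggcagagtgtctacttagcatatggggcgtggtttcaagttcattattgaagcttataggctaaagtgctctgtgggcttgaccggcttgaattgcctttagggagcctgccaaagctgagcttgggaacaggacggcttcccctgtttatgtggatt
The upstream window had a GC content of 68.7% with 31 CpG dinucleotides, and 88.5% of all 32851 windows had less GC. The internal window had a GC content of 46.7% with 5 CpG dinucleotides, and 27.3% of all windows had less. The median over all windows was 52.7% GC. The upstream window held 4 GC boxes and 1 CCAAT box, motifs found on either strand in 35.7% and 37.4% of all windows. Those 4 GC boxes include an overlapping pair. The internal window held no match to these, to the TATA box TATAAA (13.6% of windows), to the sterol regulatory element TCACNCCAC (1.24%) or to the E-box CACGTG (7.15%). The upstream window also held no TATA box, sterol regulatory element or E-box. Absence of these letters says nothing about factors that may act on either start.

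**Figure D2:**
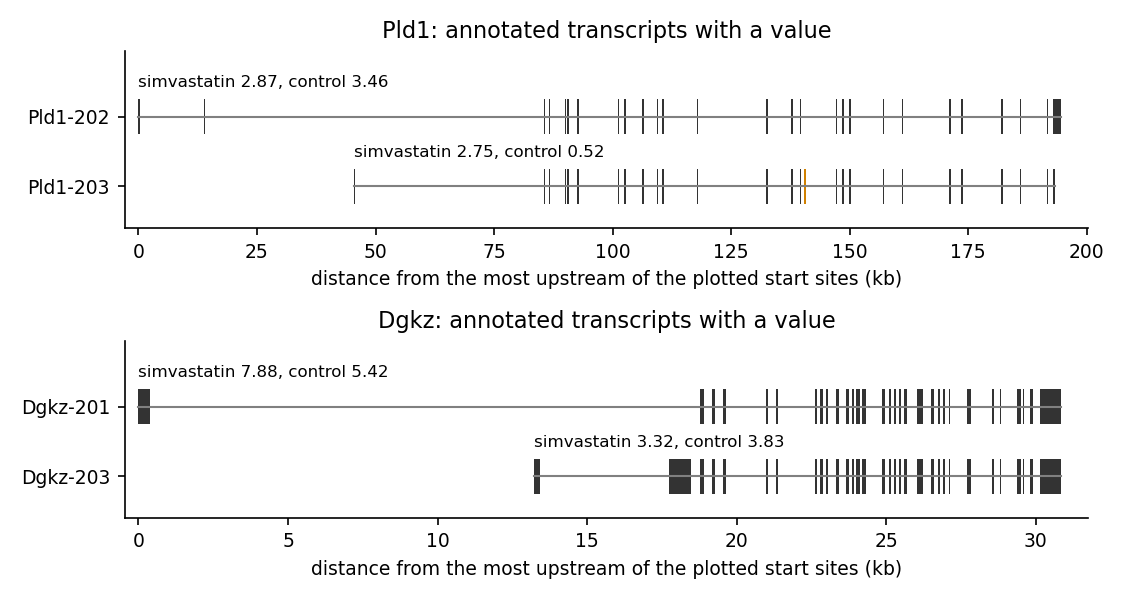
Exons (boxes) of the annotated Pld1 and Dgkz transcripts that had a value, drawn to scale from the most upstream start site in kb, with the extra coding exon of Pld1-203 in orange. The start sites lie 45478 bases apart in Pld1 and 13230 bases apart in Dgkz, and the downstream exons are largely shared.

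Regulators and relatives of PLD1 were read beside it. Of 7 measured genes for small GTPases that act on or with PLD1, 1 rose, none fell and 6 did not pass, against 2.03% of all genes that rose and 1.81% that fell. The gene that rose was Rala, a Ras-like GTPase that binds PLD1, at 16.9 with simvastatin and 11.9 without, a fold of 1.42 with an adjusted p of 0.038 in the authors' deposited table. The authors' own call does not hold Rala. Rhoa, a direct activator of PLD1, had 192.1 with simvastatin and 123.7 without for its main transcript, with an adjusted p of 0.056 in the authors' deposited table. Arf1, an activator at the Golgi, had 187.1 with simvastatin and 168.6 without, with an adjusted p of 0.601 in the authors' deposited table. The median log2 fold over the 7 genes was 0.15. Pld3, a lysosomal family member, had a total of 25.7 with simvastatin and 15.2 without, a log2 ratio of 0.76. Neither of its 2 transcripts passed, and the authors' deposited table gives them adjusted p-values of 0.557 and 0.748.

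Dgkz (ENSMUSG00000040479, chr2:91932824-91975864, minus strand, GRCm38) encodes diacylglycerol kinase zeta, which phosphorylates diacylglycerol and limits its signals. It had 5 rows, of which 2 were higher and 3 were lower with simvastatin. The row that fell was the assembled model TCONS_00016022, listed at 0 with simvastatin and at 3.11 without, with p = 0.001 and an adjusted p of 0.043 in the authors' deposited table. No fold is given for it, because 1 group is listed at 0. It made up 12.5% of the untreated Dgkz total. The files give no coordinates or exons for the assembled models, so how it differs from the annotated transcripts is not analysed here.

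The remaining Dgkz rows did not pass and went in both directions. Dgkz-201 (ENSMUST00000028667) stood at 7.88 with simvastatin and 5.42 without, with a log2 fold of 0.54 and an adjusted p of 0.906 in the authors' deposited table. Dgkz-203 (ENSMUST00000111303) stood at 3.32 with simvastatin and 3.83 without, with a log2 fold of -0.21 and an adjusted p of 0.591 in the authors' deposited table. The assembled models went opposite ways. TCONS_00016019 stood at 7.21 with simvastatin and 4.17 without, with an adjusted p of 0.840 in the authors' deposited table. TCONS_00016020 stood at 4.74 with simvastatin and 8.37 without, with an adjusted p of 0.714 in the authors' deposited table. The row with the largest value was therefore Dgkz-201 with simvastatin and TCONS_00016020 without.

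The Dgkz total was 23.2 with simvastatin and 24.9 without, a difference of -1.75 and a log2 ratio of -0.11, and 40.5% of all genes had a lower ratio. Without the row that fell, it was 23.2 with simvastatin and 21.8 without, a log2 ratio of 0.087. The sign of the total thus turned without that 1 row, which is a minor one in untreated cells. It would also turn without TCONS_00016020, whose difference of -3.63 is larger in size than the -3.11 of the row that fell. The sign turned too, to a log2 ratio of 0.0925, when both groups were scaled to the same summed value. The 2 Ensembl rows summed to 11.2 with simvastatin and 9.25 without. The 3 assembled rows summed to 12.0 with simvastatin and 15.7 without. Dgkz-201 made up 34.0% of the total with simvastatin and 21.8% without, and TCONS_00016019 made up 31.1% with simvastatin and 16.7% without. TCONS_00016020 made up 20.5% with simvastatin and 33.6% without. Dgkz-203 made up 14.3% with simvastatin and 15.4% without, and over the Ensembl rows alone it made up 29.6% with simvastatin and 41.4% without.

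**Figure D3:**
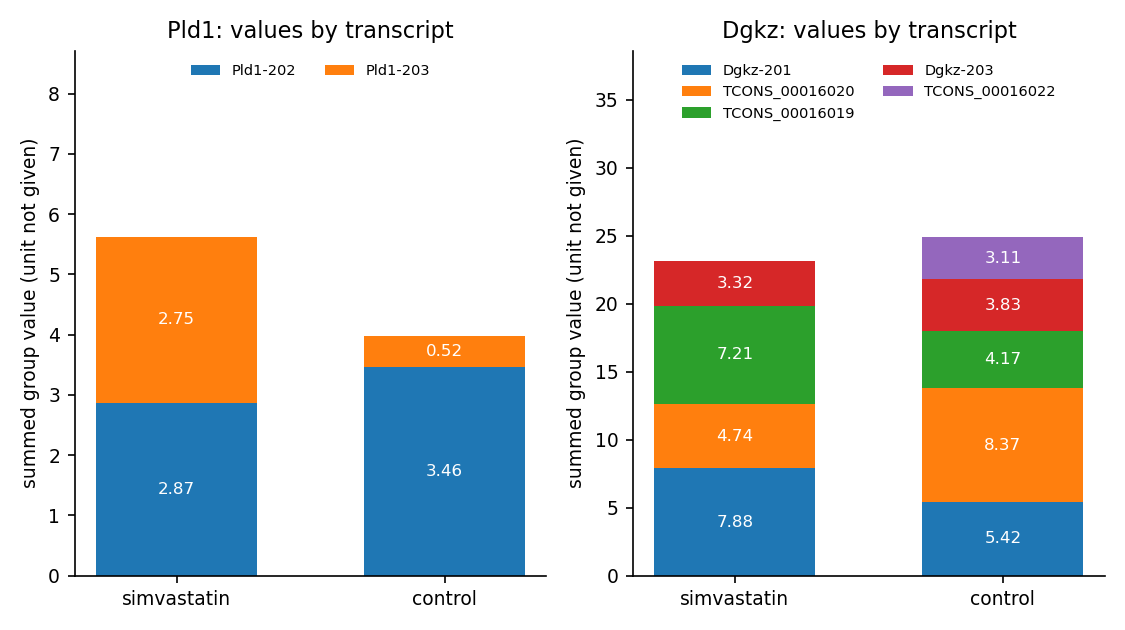
Group values of the transcripts of Pld1 and Dgkz, stacked to the summed value of each gene, with simvastatin to the left of control. Pld1-203 makes up 48.9% of the sum with simvastatin and 13.1% without, and the Dgkz model that fell makes up 12.5% of the untreated total.

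The annotated Dgkz transcripts have 29 identical exons and start 13230 bases apart. Unlike those of Pld1, they use different start codons, and Dgkz-203 codes for 1123 residues and Dgkz-201 for 929, a difference of 194. The RefSeq windows nearest to these starts are printed to show the sequence at each, again with GC boxes in capitals and in the direction of the gene. The window at chr2:91963514-91963813, minus strand, has its start site 94 bases from that of Dgkz-201. The window at chr2:91950299-91950598, minus strand, has its start site 79 bases from that of Dgkz-203.
Dgkz upstream window: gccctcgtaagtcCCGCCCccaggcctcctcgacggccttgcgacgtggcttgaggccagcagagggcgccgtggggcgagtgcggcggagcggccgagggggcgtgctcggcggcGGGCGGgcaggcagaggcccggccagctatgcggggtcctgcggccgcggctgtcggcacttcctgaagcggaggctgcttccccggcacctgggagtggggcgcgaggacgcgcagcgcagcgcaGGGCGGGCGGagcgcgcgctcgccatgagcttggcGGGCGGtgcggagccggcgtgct
Dgkz internal window: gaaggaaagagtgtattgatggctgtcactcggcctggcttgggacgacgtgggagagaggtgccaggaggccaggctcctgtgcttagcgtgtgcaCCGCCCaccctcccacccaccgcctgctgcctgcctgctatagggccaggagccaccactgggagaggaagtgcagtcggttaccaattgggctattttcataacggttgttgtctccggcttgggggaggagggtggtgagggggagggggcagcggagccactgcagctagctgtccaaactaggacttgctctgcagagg
As for Pld1, the upstream window was the richer in GC. It had 77.7% GC with 43 CpG dinucleotides and 5 GC boxes, some of them overlapping, and 97.9% of all windows had less GC. The internal window had 61.7% GC with 10 CpG dinucleotides, 1 GC box and 2 overlapping CCAAT matches on opposite strands, and 74.6% of all windows had less GC. Neither held a TATA box, a sterol regulatory element or an E-box. The 7 RefSeq windows found for 4 of the 5 genes held no sterol regulatory element in these letters, which 1.24% of all windows hold. No window was found for Pcyt2, so its promoter was not read.

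Within the diacylglycerol kinases, Dgkz was read with 2 relatives. Dgke, the isoform that prefers arachidonoyl diacylglycerol, rose, at 2.46 with simvastatin and 0.91 without, a fold of 2.70 with an adjusted p of 0.042 in the authors' deposited table. Dgka had 1 row, an assembled model, at 49.7 with simvastatin and 38.9 without, with an adjusted p of 0.914 in the authors' deposited table. So of 3 measured kinase genes, 1 had a transcript that rose, 1 had a transcript that fell, and 1 did not pass, against 2.03% of all genes with one that rose and 1.81% with one that fell. The difference between Dgke and Dgkz was not tested.

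Enzymes that make, use or answer to diacylglycerol and phosphatidic acid were counted in the same way. Over all genes, 2.03% had a transcript that rose, 1.81% had one that fell, and 32.4% had one with an unadjusted p under 0.05. None of 6 phosphatidic acid phosphatase genes passed, and 2 of the 6 had an unadjusted p under 0.05 in the authors' deposited table. Among them Plpp2, a lipid phosphate phosphatase, had a total of 48.1 with simvastatin and 54.2 without. Plpp1, a close relative, had 11.8 with simvastatin and 4.59 without, with an adjusted p of 0.152 in the authors' deposited table. Plpp6, a phosphatase of isoprenoid diphosphates, had 10.0 with simvastatin and 6.52 without, with p = 0.003 and an adjusted p of 0.064 in the authors' deposited table. None of 3 phospholipase C genes, which release diacylglycerol from inositol lipids, passed, and 1 of the 3 had an unadjusted p under 0.05. Plcg1, a receptor-activated isozyme, had a total of 15.9 with simvastatin and 15.8 without, from a row at 11.9 with simvastatin and 15.8 without and a row at 4.01 with simvastatin and 0.01 without. Plcd1, a calcium-sensitive isozyme, had 2.13 with simvastatin and 0.25 without, with p = 0.024 and an adjusted p of 0.175 in the authors' deposited table. Plcb3, an isozyme activated by G proteins, had 1.65 with simvastatin and 0.46 without, with an adjusted p of 0.569 in the authors' deposited table. All 3 totals were higher with simvastatin. None of 2 genes that esterify diacylglycerol or make it from monoacylglycerol passed, although both had an unadjusted p under 0.05. Dgat1, which forms triacylglycerol, had 9.53 with simvastatin and 5.79 without, with an adjusted p of 0.133 in the authors' deposited table. Mogat1, the monoacylglycerol acyltransferase, had 4.53 with simvastatin and 2.64 without, with an adjusted p of 0.214 in the authors' deposited table. None of 3 diacylglycerol effector genes passed, and 1 of the 3 had an unadjusted p under 0.05. Prkcq, protein kinase C theta, had a total of 17.8 with simvastatin and 26.5 without, and its 3 rows had adjusted p-values between 0.154 and 0.306 in the authors' deposited table. Rasgrp3, a diacylglycerol-binding activator of Ras proteins, had a total of 22.5 with simvastatin and 14.4 without. Prkd3, a protein kinase D, had a total of 12.1 with simvastatin and 9.75 without. The median log2 fold of the most abundant transcripts of these 3 effector genes was 0.98, and their median total log2 ratio was 0.31. The 0.98 is that of the main Prkd3 row, with an adjusted p of 0.601 in the authors' deposited table. The other Prkd3 row had a log2 fold of -1.78.

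Beyond phosphatidic acid, 1 of 8 genes of the CDP-diacylglycerol branches fell and none rose, against 1.81% of all genes with a transcript that fell and 2.03% with one that rose. This was Tamm41, the mitochondrial enzyme that makes CDP-diacylglycerol for cardiolipin, at 8.15 with simvastatin and 14.9 without for its main transcript, with a log2 fold of -0.86 and an adjusted p of 0.048 in the authors' deposited table. Cds2, the endoplasmic reticulum enzyme of the same reaction, had 30.3 with simvastatin and 18.1 without, with an adjusted p of 0.076 in the authors' deposited table. None of 6 lysophospholipid acyltransferase genes and none of 4 phospholipase A2 genes passed, and an unadjusted p under 0.05 was found for 1 of the 6 and for 0 of the 4. Of these lists, the lysophospholipid acyltransferases alone had a negative median log2 fold of most abundant transcripts, -0.29, with 2 totals higher and 4 lower. Lpcat2, which reacylates lysophosphatidylcholine, had a total of 24.4 with simvastatin and 18.4 without. Lpcat1, another enzyme of that reaction, had 3.77 with simvastatin and 7.59 without, with p = 0.013 and an adjusted p of 0.130 in the authors' deposited table.

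Taken over all the phospholipid and diacylglycerol lists, 62 genes were measured, among them the 7 small GTPases of the PLD1 list and the 3 diacylglycerol effectors, which are not lipid enzymes. Of these 62, 3 rose, namely Etnk1, Dgke and the GTPase gene Rala (4.84%, against 2.03% of all genes) and 2 had a transcript that fell (3.23%, against 1.81%). Totals were higher with simvastatin for 45 and lower for 17, and the median log2 fold of most abundant transcripts was 0.33. The median over all transcripts was 0.014. For comparison, 2 of 12 well-known targets of SREBP, the sterol-sensing transcription factor, rose and none fell, with all 12 totals higher and a median log2 fold of 0.98. Of the 12, 9 had a transcript with an unadjusted p under 0.05, against 32.4% of all genes. The authors' own call holds a row of 9 of the 12, all higher. Among these targets Insig1, which holds SREBP in the endoplasmic reticulum, had 138.9 with simvastatin and 63.7 without, with an adjusted p of 0.056 in the authors' deposited table. By fold the Pcyt2 row, at 0.85 on the log2 scale, lay below the median of that list.

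**Figure D4:**
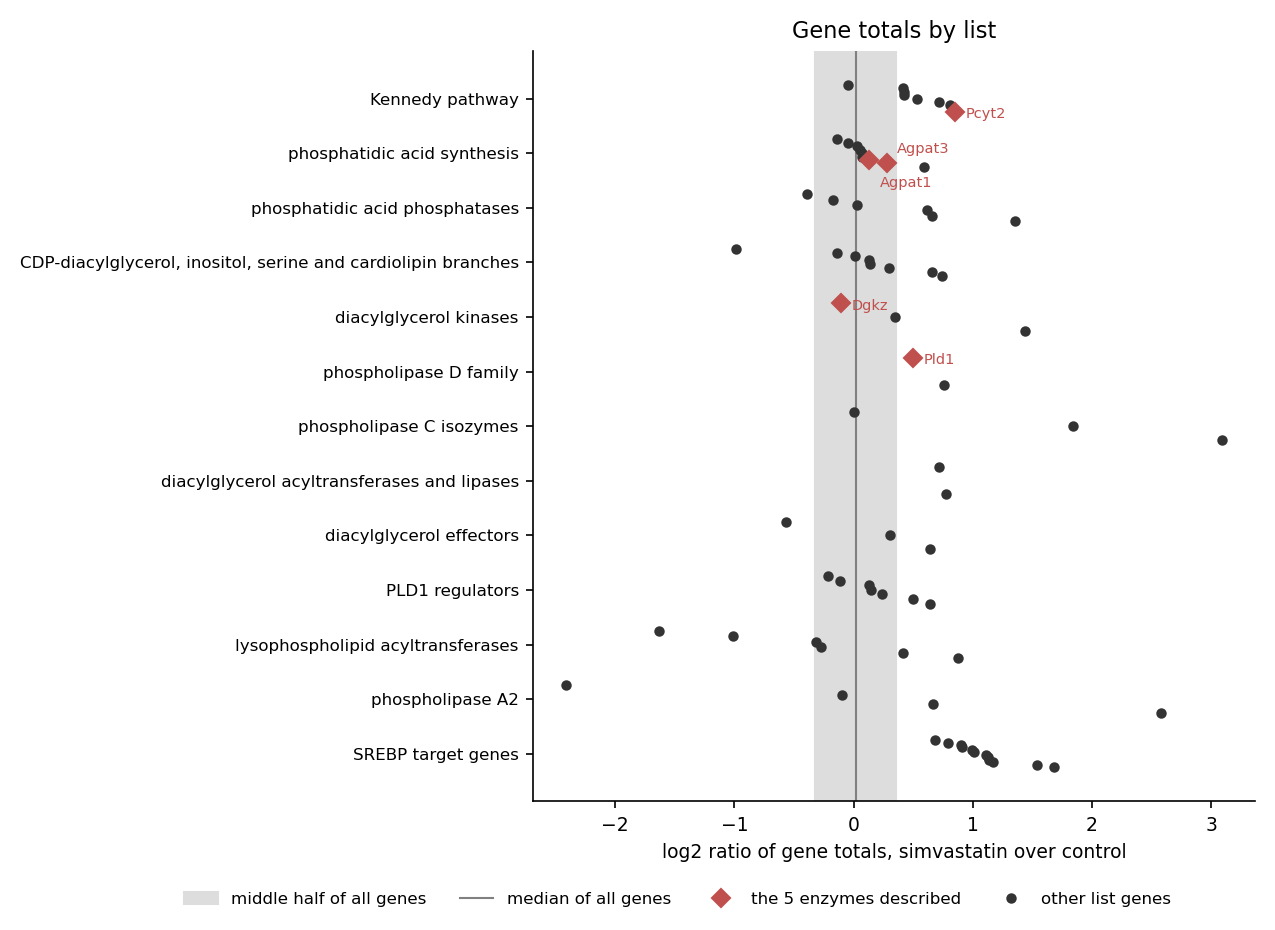
Log2 ratio of gene totals, simvastatin over control, for each measured gene of the lists, with the 5 enzymes as red diamonds and the quartile range of all genes in grey (-0.32 to 0.35). Pcyt2 (0.85) and Pld1 (0.50) lie above that range, Agpat1, Agpat3 and Dgkz lie inside it, and all 12 SREBP targets lie above it.

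Transcripts of a gene that point in opposite directions were common in these data. Of the 3978 genes with at least 2 rows, 63.4% had rows in both directions, and for 20.1% the total went against the most abundant row. Both Pld1 and Dgkz belong to that 20.1%. The share with rows in both directions was 51.6% of the 2171 genes with 2 rows, as Pld1 has, and 85.7% of the 371 genes with at least 5 rows, as Dgkz has. Among called rows of genes with at least 2 rows, 65 of 148 were not the most abundant row of their gene. A group value listed at 0 was rare, in 103 of all rows. Of 58 rows listed at 0 with simvastatin, 3 were called, and the Dgkz model was one of 2 called rows among them that were assembled from reads.

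The authors' deposited tables of annotation terms and protein links were then read for the same 5 genes. Terms were listed for genes in the authors' own call alone. That call holds no row of Agpat1 or Agpat3, so neither gene could be listed. Pld1 was listed under 14 terms, 13 of them at an adjusted p under 0.05, Pcyt2 under 4 and Dgkz under 1. The authors' deposited table lists Pcyt2 and Pld1 together under lipid metabolic process, among 67 genes that the authors called higher. Its enrichment there was 3.49-fold, with an adjusted p of 6.68e-15. In the authors' deposited table the KEGG term for phospholipase D signalling lists 16 genes that the authors called higher. Its enrichment there was 2.60-fold, with an adjusted p of 0.0335. Dgke is among those with a row past the threshold used here. Of the 16, 4 genes, Pld1, Dnm2, Fyn and Mapk3, enter the authors' own call through a less abundant row alone. These genes were picked out after their values were seen, and no term was tested again. In the authors' deposited table of protein links, Pld1 has 1 link, to Cds2, with a score of 0.928. The Pld1 protein named there is the product of Pld1-202, whereas the row in the authors' own call is Pld1-203.

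**Figure D5:**
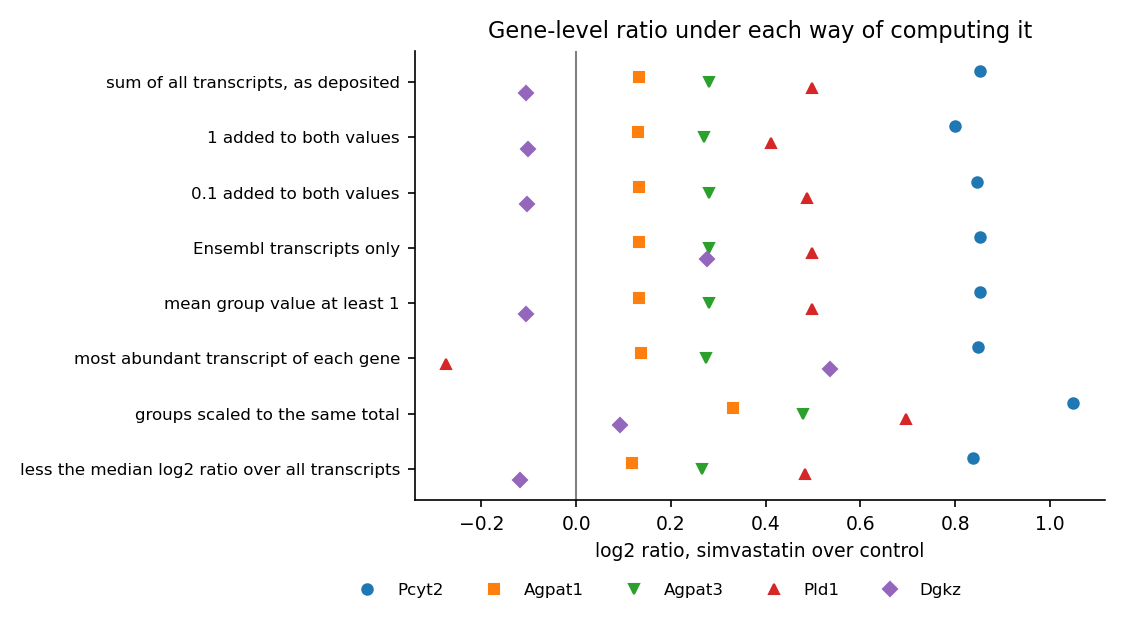
Log2 ratio of each gene total, simvastatin over control, under the values as deposited and under each other way of computing it. Pcyt2, Agpat1 and Agpat3 have a single row each and stay above 0. Pld1 lies below 0 (-0.28) with its most abundant transcript alone, and Dgkz changes sign under 3 of the settings.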

How the data were processed

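RNA sequencing of 3 simvastatin and 3 control libraries was deposited as tables of the authors' own comparison, and no column of per-sample values was used. Reads were aligned to GRCm38 (mm10) with HISAT2 2.0.5 and assembled with StringTie, per the submitters' processing notes. The expression signal per transcript and group is given as the authors deposited it, and no source used here gives its unit, normalization or test. The signed fold, a score in which a lower value carries a minus sign, was deposited by the authors beside the p-value and adjusted p-value, both to 3 decimals. The deposited fold lies within 1.21% of the quotient of the group values where both are at least 1. The link score of the protein table was also deposited.

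Log2 folds of transcripts come from the deposited fold, and those of totals from summed values with no pseudocount. The call was the authors' adjusted p under 0.05, which was planned in place of a refit because the files hold no counts. Depth and its precision are unknown. The enzymes, lists and tests were chosen with earlier results of these data known, and support nothing independently. Named genes are the 5 enzymes and, per list, those with a transcript past 0.05 or otherwise at most the 3 of highest mean value, with Insig1 and Hmgcs1 as comparators. Some genes that the rule names are not reported here. Genes named outside that rule (Selenoi, Pcyt1a, Slc44a1, Slc44a2, Rhoa, Arf1, Dgka, Cds2, Lpcat1, Dnm2, Fyn and Mapk3) were chosen after their values were seen. Hmgcs1 rose, at 95.0 with simvastatin and 27.3 without for its main row, with an adjusted p of 0.041 in the authors' deposited table. Exons came from GENCODE M21 and promoter windows from RefSeq, both GRCm38, with a window found for 4 of the 5 genes. The conversion of signed folds to log2 and the count of called higher rows were tested on simulated data. Sums and shares were not tested in that way. Python 3.11.15 and pandas 2.3.3 were used.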

Additional observations from a re-analysis of the deposited data

How the results depend on the processing

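No paired analysis was possible because the files give 1 value per group, and for the same reason no flask could be left out. The count of 1 called transcript among the 5 enzymes became 0 with Ensembl transcripts alone (2 of 7 at an unadjusted p under 0.05) and 0 with each gene's most abundant transcript alone (1 of 5). It became 3 by the authors' own call and 3 at an unadjusted p under 0.05. The Pld1 log2 total of 0.50 became -0.28 with its most abundant transcript alone. The Dgkz log2 total of -0.11 became 0.28 with Ensembl transcripts alone, 0.54 with its most abundant transcript alone, and 0.0925 with both groups scaled to the same sum. The cause was not tested, beyond the rows each choice leaves out. That scaling matters because the summed values were 344210 with simvastatin and 394749 without, a log2 ratio of -0.20. The other 31 of 35 totals computed kept their direction. Many of these could not turn, because a value added to both groups keeps the sign. A minimum mean value of 1 left out none of the 10 rows. For the 3 genes with a single row, the choice of rows changes nothing. Of 36 transcript folds, 35 moved by less than 1.5 times, and Pld1-203 moved to a log2 fold of 1.30 with 1 added to both values. Scaling to the same sum and subtracting the median each shift all folds alike, by too little to count as moved. With both groups scaled to the same sum, the log2 folds of Pld1-202 and Dgkz-203 shrank to -0.0721 and -0.0085. Pld1 has no assembled rows, so the 35.9 percentage points by which the Pld1-203 share differed could not change without such rows. The Dgkz-203 share differed by -1.04 percentage points over all rows and by -11.8 over Ensembl rows. The lists together had 5 genes with a called transcript, and 4 when only the most abundant transcript counted. With no spread between flasks, differences as small as those of Agpat1 and Agpat3 cannot be told from variation between flasks.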
